A study of Mus musculus with 16 samples.

Results

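The aryl hydrocarbon receptor (AHR) and NRF2 are the transcription factors behind 2 chemical defence programmes of the gut wall. The genes described here were taken by name: Ahr, Ahrr, Arnt, Cyp1a1 and Tiparp on the AHR side, and Nfe2l2, Nqo1, Gclc, Gclm and Srxn1 on the NRF2 side, 10 genes in all beside the 23299 genes of the table. Of the 10, 9 had a row in the table, Cyp1a1 was not analysed here, and 8 passed the filter of at least 1 RPKM (reads normalised to transcript length and to the library total) in at least 2 libraries, which left 19042 genes to be tested. Ahrr had a row but did not pass that filter.

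The terminal ileum of C57BL/6 mice was sequenced. Tas1r3, which the knockout lacks, encodes the subunit shared by the sweet and umami taste receptors, and the wild-type (WT, Tas1r3+/+) mice were littermates of the knockouts (KO, Tas1r3-/-), which carry the deleted allele in the whole body. WT-ND and KO-ND mice received the normal diet (ND) and plain water for 10 weeks, and WT-WD and KO-WD mice received the Western diet (WD), a 60% high-fat diet with 30% sugar water, for the same 10 weeks. The labels give 2 males and 2 females for each group. Both columns of the KO-ND females were weighted means of the KO-ND males and were left out, and both columns of the KO-WD females were averaged, which left 13 libraries: 4 of WT-ND, 2 of KO-ND (both males), 4 of WT-WD and 3 of KO-WD. In what follows KO-WD F is that average, and p-values measure the spread between these libraries.

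AHR is a receptor in the cytoplasm that is opened by small aromatic molecules, among them pollutants and the indoles that plants and gut bacteria supply, and it then pairs with ARNT in the nucleus and binds xenobiotic response elements. Its targets include the oxidising enzyme Cyp1a1 and 2 genes that turn the receptor down again, the repressor Ahrr and the ADP-ribosyltransferase Tiparp. NRF2, the product of Nfe2l2, is normally destroyed through KEAP1, and when oxidants or electrophiles stop this it pairs with small MAF proteins at antioxidant response elements. It turns on the quinone reductase Nqo1, both subunits of the enzyme that begins glutathione synthesis (the catalytic Gclc and the modifier Gclm) and the sulfiredoxin Srxn1, which repairs over-oxidised peroxiredoxins. Both factors act mainly through the binding or stability of the protein, so the mRNA of Ahr or Nfe2l2 is not a reading of its activity.

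The promoters of the 4 genes with the smallest p-values in the diet and genotype comparisons are shown to let the response elements be seen. They are RefSeq sequences of GRCm38.p6, each running from 250 bases before to 50 bases after the start of the gene, 5′ to 3′ on the strand of the gene. Capitals mark matches on either strand to GCGTG, the core of the xenobiotic response element, or to TGACNNNGC, the core of the antioxidant response element. No match of one overlaps a match of the other.
Tiparp (chr3:65528197-65528496, plus strand): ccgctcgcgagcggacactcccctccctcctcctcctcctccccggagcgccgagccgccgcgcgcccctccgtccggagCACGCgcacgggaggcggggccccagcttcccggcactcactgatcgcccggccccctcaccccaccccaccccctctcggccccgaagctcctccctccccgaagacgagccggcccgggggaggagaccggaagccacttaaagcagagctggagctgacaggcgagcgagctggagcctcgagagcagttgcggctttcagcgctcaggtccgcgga
Nfe2l2 (chr2:75704614-75704913, minus strand): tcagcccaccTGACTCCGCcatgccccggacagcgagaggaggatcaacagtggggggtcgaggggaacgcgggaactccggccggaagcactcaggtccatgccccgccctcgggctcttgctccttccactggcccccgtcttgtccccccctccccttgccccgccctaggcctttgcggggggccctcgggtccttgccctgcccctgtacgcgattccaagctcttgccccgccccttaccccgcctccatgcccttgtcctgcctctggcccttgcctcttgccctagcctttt
Nqo1 (chr8:107403156-107403455, minus strand): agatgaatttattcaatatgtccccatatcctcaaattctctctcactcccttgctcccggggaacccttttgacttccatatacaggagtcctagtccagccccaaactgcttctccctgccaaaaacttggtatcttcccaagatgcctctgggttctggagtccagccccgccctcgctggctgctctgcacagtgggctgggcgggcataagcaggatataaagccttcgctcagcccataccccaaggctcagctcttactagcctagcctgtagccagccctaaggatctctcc
Gclm (chr3:122245307-122245606, plus strand): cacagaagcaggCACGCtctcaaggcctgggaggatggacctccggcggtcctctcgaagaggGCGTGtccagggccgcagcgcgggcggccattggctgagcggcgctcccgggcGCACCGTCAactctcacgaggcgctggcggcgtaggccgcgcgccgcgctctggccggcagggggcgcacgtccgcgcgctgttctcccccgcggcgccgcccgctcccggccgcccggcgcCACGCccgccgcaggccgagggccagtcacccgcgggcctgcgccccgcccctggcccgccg
The Tiparp window held 1 match to the xenobiotic core, on the strand opposite to the gene. The Nfe2l2 window held 1 match to the antioxidant core near its far end. The Gclm window held 3 matches to the xenobiotic core and 1 to the antioxidant core. No match to either lay in the Nqo1 window, which says only that these letters are not in these 300 bases. Promoters were at hand for 7 of the 9 genes with a row, and the other 3 were Ahrr with 3 xenobiotic matches, Arnt with 1 xenobiotic and 2 antioxidant matches, and Srxn1 with 2 xenobiotic matches and 1 antioxidant match. Over all 32851 promoters of the same length, 32.4% held the xenobiotic core and 12.4% held the antioxidant core, so these short motifs are common.

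The libraries carried 7003138 to 12384103 reads as implied by the steps of the deposited values, and 1 read on a transcript of 1 kb was worth 0.0692 to 0.139 RPKM. The deposited values summed to less in every WD library (542371 to 685274) than in any ND library (817011 to 819916), and with the values as deposited the median gene was 0.38 (log2) lower on the WD in WT mice, 0.35 lower on the WD in KO mice, 0.14 lower in KO than in WT mice on the ND and 0.12 lower on the WD. Libraries were therefore scaled to each other by a trimmed mean of ratios, and all changes below are on that scale unless said otherwise. WT-WD F2 and KO-WD F had the lowest median gene, at 2.604 and 2.90 RPKM against 3.38 to 5.39 in the other 11. Tas1r3 itself was 1.80 to 2.95 RPKM in WT-ND, 4.21 to 6.27 in WT-WD and at most 0.00452 in any KO library. All 8 enterocyte markers and all 4 markers of ileal bile acid handling were measured in the libraries, in keeping with the tissue named in the labels.

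The genes fell into an order of level that held in nearly all libraries. On the scaled RPKM scale, which is per length and so can be compared between genes, the means over the 13 libraries were 80.2 for Srxn1, 46.8 for Nfe2l2, 33.0 for Gclm, 15.3 for Gclc, 9.57 for Nqo1, 8.87 for Arnt, 3.88 for Tiparp, 2.33 for Ahr and 0.301 for Ahrr. Srxn1 was thus above 93.9% of the genes tested and Ahr above 26.01% of them. Each gene exceeded the next in at least 12 of 13 libraries, except Nqo1 and Arnt, where Nqo1 was the higher in 8 of 13 and the mean difference in level was 0.10 ± 0.34 (log2, SD over libraries). The glutathione modifier Gclm stood above its catalytic partner Gclc in every library. The ratio of Gclm to Gclc was 2.23 ± 0.437 in WT-ND (SD, n = 4), 1.75 ± 0.612 in KO-ND (n = 2), 2.71 ± 1.04 in WT-WD (n = 4) and 1.77 ± 0.304 in KO-WD (n = 3). Those ranges overlapped between all groups.

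Spread between libraries of a group differed greatly among the genes. Nfe2l2 (chr2:75675513-75704641, minus strand, coordinates of GENCODE on GRCm38 here and below) was among the steadiest, with an SD within groups of 0.21 (log2), which 11.1% of the genes tested lay below, and its lowest and highest libraries were 1.57-fold apart. Srxn1 (chr2:152105516-152111376, plus strand) was among the most variable of these genes, with an SD within groups of 0.64 that exceeded that of 80.7% of genes, and 5.47-fold lay between its lowest and highest libraries. Gclm (0.40), Ahr (0.34), Gclc (0.33), Tiparp (0.25), Nqo1 (0.24) and Arnt (0.24) lay between.

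**Figure D1:**
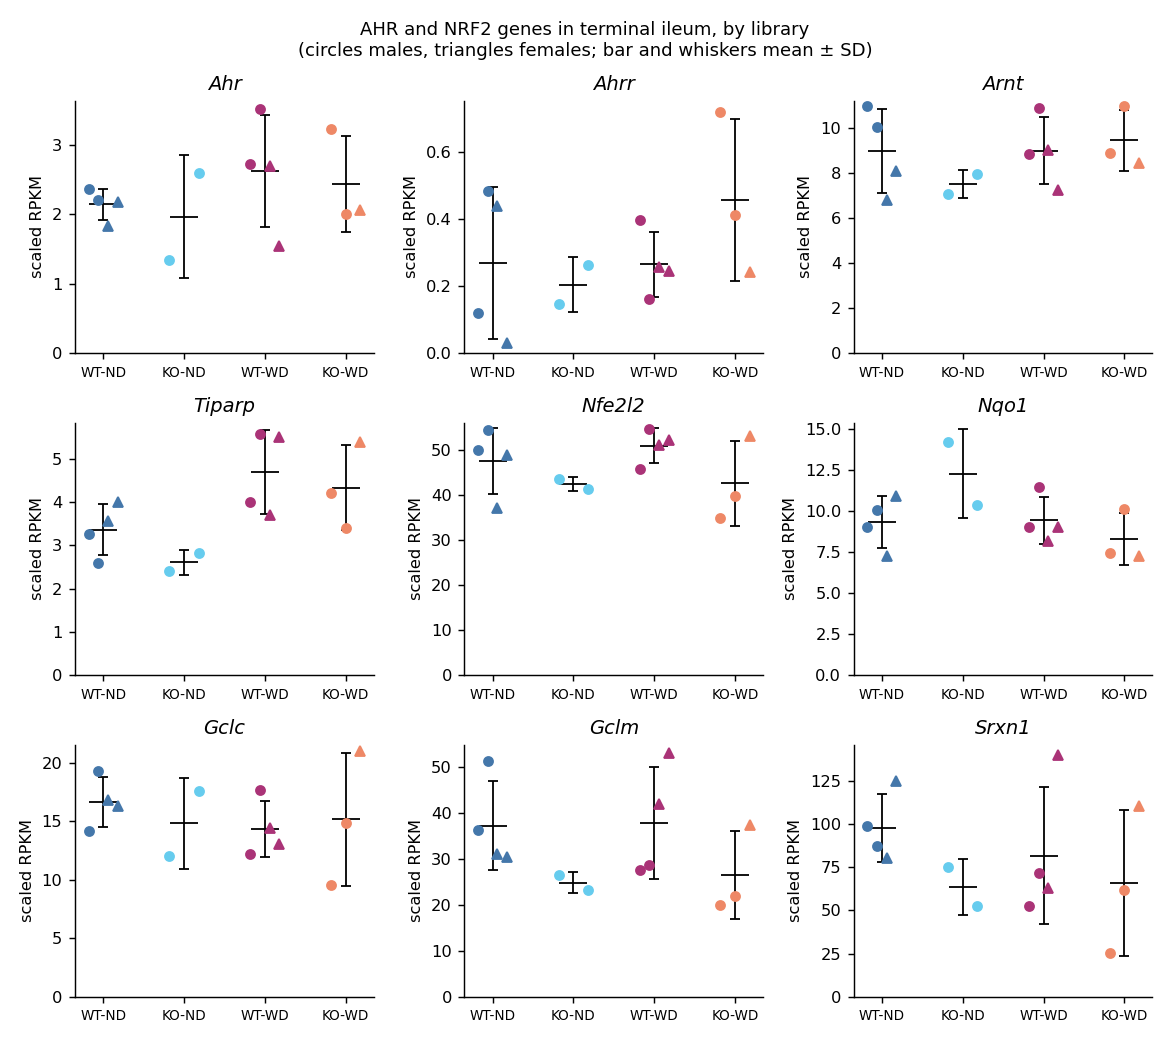
Scaled RPKM (vertical axis, from 0) of the 9 genes with a row in WT-ND, KO-ND, WT-WD and KO-WD. Each point is a library (circles males, triangles females), and bars with whiskers are the mean ± SD. Tiparp tends higher on the WD, Gclm and Srxn1 sit lower in both KO-ND libraries than in all 4 WT-ND libraries, and Srxn1 runs from 25.6 to 140.

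The first question was whether the WD changed these genes. None of the 8 genes tested passed the threshold (limma, adjusted p below 0.01 and a fold change of at least 2) in WT mice, where 0.00525% of all genes did, nor in KO mice, where 0% did. In simulated data of the WT comparison, 0 of 200 genes given a log2 change of 1 were called. A count of 0 therefore does not show that a gene was unchanged. At the looser limit of an adjusted p below 0.05 the counts were again 0 and 0, with 0.116% and 0.00525% of all genes passing. At an unadjusted p below 0.05, 0 of 8 passed in WT mice (15.6% of all genes) and 2 of 8 in KO mice (5.49% of all genes), which were Tiparp and Nqo1. In WT mice, 6 of the 8 had a log2 fold change above 0 (51.6% of all genes did) and 2 below it, with a median of 0.02 (log2) against 0.02 over all genes. In KO mice the split was 4 above (50.3% of all genes) and 4 below, with a median of 0.01 against 0.00 over all genes.

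Tiparp (chr3:65528410-65555518, plus strand) had the highest diet estimate in both genotypes. In scaled RPKM it was 3.26, 2.599, 3.57 and 4.002 in WT-ND (M1, M2, F1, F2) and 2.40 and 2.81 in KO-ND (M1, M2). On the WD it was 4.01, 5.57, 3.70 and 5.50 in WT-WD (M1, M2, F1, F2) and 4.22, 3.41 and 5.38 in KO-WD (M1, M2, F). WT-WD overlapped WT-ND through WT-WD F1 alone, and all 3 KO-WD libraries were above both KO-ND libraries. The log2 fold change was 0.42 in WT mice (95% interval -0.02 to 0.87, adjusted p = 0.342) and 0.62 in KO mice (0.04 to 1.20, unadjusted p = 0.0368, adjusted p = 0.898) by limma. By an exact permutation test over libraries, two-sided, p was 0.0571 in WT mice (the smallest possible being 0.0286) and 0.2 in KO mice (0.1). The difference depended on the scaling: with RPKM as deposited the estimates were 0.01 and 0.26, while the median gene fell. Part of the KO estimate lay on the short, noncoding transcript Tiparp-203, described below. With RPKM as deposited, the coding Tiparp-201 had means of 2.90 in KO-ND and 3.11 in KO-WD, against 2.90 and 3.56 for the gene.

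Nqo1 (chr8:107388225-107403206, minus strand) went the other way in KO mice. It was 9.03, 10.1, 7.24 and 10.9 scaled RPKM in WT-ND (M1, M2, F1, F2) and 9.01, 11.5, 8.20 and 9.02 in WT-WD. In KO-ND it was 14.2 and 10.4 (M1, M2), and in KO-WD it was 7.47, 10.1 and 7.26 (M1, M2, F). The WT groups overlapped, while all 3 KO-WD libraries were below both KO-ND libraries, though by little for M2. The log2 fold change was 0.02 in WT mice (-0.39 to 0.43, limma adjusted p = 0.969) and -0.54 in KO mice (-1.07 to -0.01, unadjusted p = 0.0456, adjusted p = 0.90). The test of the difference between both diet effects, the interaction, gave -0.56 (-1.23 to 0.11, unadjusted p = 0.0926, adjusted p = 1.00), so a difference of diet effect between genotypes was not shown. Leaving out KO-ND M1 took the estimate in KO mice to -0.32. Among the males alone it was -0.46.

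With diet, groups that did not overlap were found in KO mice only. In WT mice 0 of 8 genes had all WD libraries on one side of all ND libraries (10.6% of all genes did), and in KO mice 3 of 8 did, namely Arnt, Tiparp and Nqo1 (20.9% of all genes). Arnt (chr3:95434388-95497240, plus strand) was 7.07 and 7.96 scaled RPKM in KO-ND and 8.89, 11.01 and 8.47 in KO-WD (M1, M2, F), a log2 fold change of 0.31 (-0.22 to 0.83, limma adjusted p = 0.978). In WT mice Arnt was 10.97, 10.05, 6.81 and 8.10 on the ND and 8.83, 10.9, 9.04 and 7.24 on the WD (M1, M2, F1, F2), a log2 fold change of 0.01 (-0.40 to 0.42). The WT groups covered nearly the same range of Arnt, and the KO-ND pair lay within it.

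Ahr (chr12:35497974-35535038, minus strand) was low in every library. It was 2.36, 2.20, 1.83 and 2.18 scaled RPKM in WT-ND (M1, M2, F1, F2) and 1.33 and 2.59 in KO-ND. On the WD it was 2.72, 3.51, 2.70 and 1.54 in WT-WD (M1, M2, F1, F2) and 3.23, 2.004 and 2.06 in KO-WD (M1, M2, F). All groups overlapped, with the lowest library in KO-ND and the highest in WT-WD. The log2 fold changes with diet were 0.20 in WT mice (-0.35 to 0.75) and 0.28 in KO mice (-0.44 to 0.99). Ahrr, the repressor, ran from 0.029 to 0.719 scaled RPKM, which is 2.0 to 30.6 implied reads, and its group means were 0.268, 0.205, 0.265 and 0.458 in WT-ND, KO-ND, WT-WD and KO-WD. No test was made on Ahrr.

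Nfe2l2 differed little with diet. It was 50.1, 54.5, 37.2 and 49.0 scaled RPKM in WT-ND and 45.8, 54.8, 51.2 and 52.4 in WT-WD (M1, M2, F1, F2). In KO-ND it was 43.7 and 41.5, and in KO-WD 34.95, 39.9 and 53.2 (M1, M2, F). The log2 fold change was 0.11 in WT mice (-0.26 to 0.48) and -0.02 in KO mice (-0.50 to 0.46), which as fold changes are intervals of 0.835 to 1.39 and 0.709 to 1.37. No other gene here had as narrow an interval in WT mice.

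The catalytic subunit Gclc (chr9:77754535-77794485, plus strand) was 14.2, 19.3, 16.8 and 16.3 scaled RPKM in WT-ND and 12.2, 17.7, 14.4 and 13.1 in WT-WD (M1, M2, F1, F2). It was 12.1 and 17.6 in KO-ND and 9.61, 14.9 and 21.01 in KO-WD (M1, M2, F). KO-WD alone held both the lowest and the highest library of Gclc. The log2 fold change with diet was -0.22 in WT mice (-0.71 to 0.28) and -0.01 in KO mice (-0.66 to 0.63).

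The second question was whether Tas1r3 deficiency changed these genes. None of the 8 passed the threshold on the ND (0% of all genes did) or on the WD (0.0105%), and none had an adjusted p below 0.05 (0.00525% and 0.0263% of all genes did) or an unadjusted p below 0.05 (4.75% and 2.65%) on either diet. On the ND, 7 of 8 had a log2 fold change below 0 (48.7% of all genes did), with a median of -0.20 against 0.01 over all genes. On the WD, 6 of 8 did (52.2% of all genes), with a median of -0.14 against -0.01. The ND comparison rests on 2 KO libraries, both males, and the KO groups serve in both a diet and a genotype comparison. The interaction was called for 0 of 8 genes (0% of all genes), with 0 of 8 at an unadjusted p below 0.05 (1.43% of all genes).

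Gclm (chr3:122245557-122270732, plus strand) and Srxn1 had the lowest genotype estimates, and both were NRF2 targets. Gclm was 36.2, 51.3, 31.0 and 30.3 scaled RPKM in WT-ND (M1, M2, F1, F2) and 26.4 and 23.2 in KO-ND (M1, M2). On the WD it was 27.6, 28.6, 42.0 and 53.0 in WT-WD (M1, M2, F1, F2) and 19.9, 21.9 and 37.4 in KO-WD (M1, M2, F). On the ND both KO libraries were below all 4 WT libraries, and on the WD both KO males were below all WT libraries while the KO female was not. The log2 fold change was -0.55 on the ND (-1.25 to 0.16, limma adjusted p = 0.894) and -0.51 on the WD (-1.13 to 0.11, limma adjusted p = 1.00). Among males alone it was -0.76 on the ND (limma unadjusted p = 0.0082, adjusted p = 0.55).

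Srxn1 was 98.9, 87.0, 80.2 and 125 scaled RPKM in WT-ND (M1, M2, F1, F2) and 75.1 and 52.2 in KO-ND (M1, M2). On the WD it was 52.4, 71.3, 62.7 and 140 in WT-WD (M1, M2, F1, F2) and 25.6, 61.8 and 110 in KO-WD (M1, M2, F). Both KO-ND libraries were below all 4 WT-ND libraries, whereas the WD groups overlapped, with WT-WD F2 the highest library of all and KO-WD M1 the lowest. The log2 fold change was -0.62 on the ND (-1.68 to 0.45, limma adjusted p = 0.894) and -0.43 on the WD (-1.37 to 0.51, limma adjusted p = 1.00). The exact permutation test gave p = 0.0667 on the ND, the smallest that 2 against 4 libraries allow. Leaving out KO-WD M1 turned the WD estimate to 0.15. With diet, Srxn1 changed by -0.35 in WT mice (-1.22 to 0.53) and -0.16 in KO mice (-1.29 to 0.96), and both intervals reached past a 2-fold decrease.

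Gclm and Srxn1 were thus the 2 of 8 genes whose groups did not overlap on the ND (22% of all genes). On the WD 0 of 8 did so (2.83% of all genes). For the other genes the genotype estimates on the ND ran from -0.30 for Tiparp to 0.38 for Nqo1, and on the WD from -0.28 for Nfe2l2 to 0.07 for Arnt. Nqo1 was the only one of the 8 with an estimate above 0 on the ND, and its interval (-0.12 to 0.88) included 0.

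**Figure D2:**
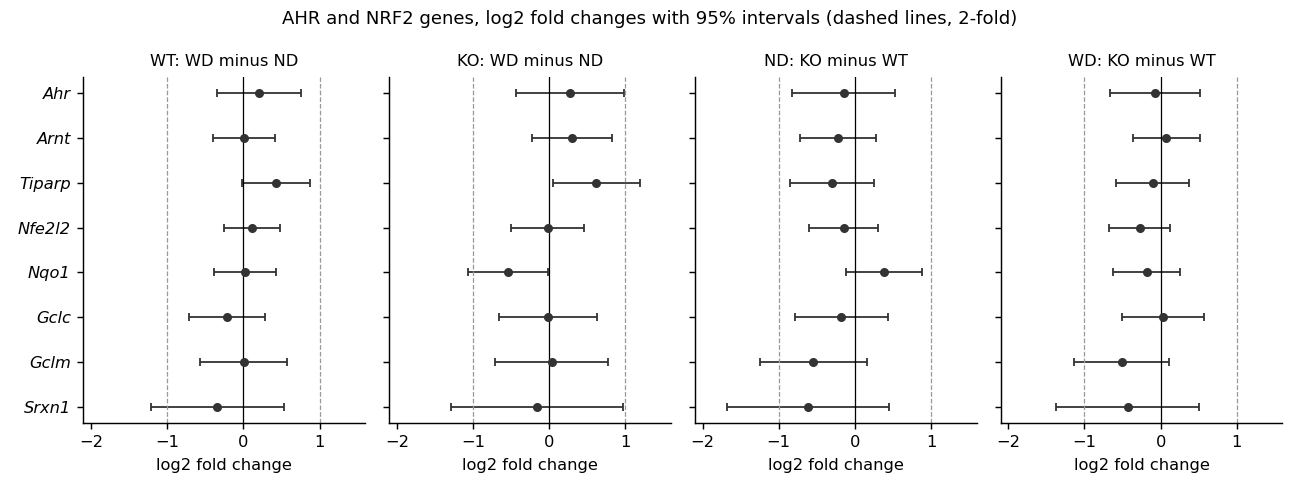
Log2 fold changes (horizontal axis, limma) of the 8 genes tested in the 4 comparisons, with points for the estimates, whiskers for 95% intervals and dashed lines at 2-fold either way. Only the intervals of Tiparp and Nqo1 in KO mice leave out 0, and Srxn1 has the widest interval in each panel.

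The summed levels of cell type markers differed from library to library, and 3 of the NRF2-side genes ran with the sum of the enterocyte list. In bulk tissue fewer cells of a type and less RNA per cell cannot be told apart. The 8 enterocyte markers were Vil1, Epcam, Cdh1, Alpi, Fabp2, Apoa4, Slc5a1 and Sis. Of these, Epcam, Cdh1 and Vil1 (means of 889, 116 and 521 scaled RPKM) are shared with other epithelial cells, so the sum reads epithelium more widely. The summed scaled RPKM of the 8 ran from 2566 to 4786 in WT-ND, 1561 to 2030 in KO-ND, 2732 to 8470 in WT-WD and 709 to 4284 in KO-WD. In that sum KO-ND lay below WT-ND without overlap, as Gclm and Srxn1 did. It was lowest in KO-WD M1 and highest in WT-WD F2, which were also the extremes of Srxn1. The sum of the 4 markers of ileal bile acid handling did overlap, at 3718 to 6373 in WT-ND and 1850 to 5273 in KO-ND. That sum ran from 1718 to 10283.5 in WT-WD and from 922 to 3719 in KO-WD. Not every enterocyte marker list thus set KO-ND apart from WT-ND. The summed smooth muscle markers (6 of 6 measured) ran from 1107 to 3321 in WT-ND, 1953 to 3789 in KO-ND, 1019 to 4027 in WT-WD and 1368 to 5356 in KO-WD, and were lowest in WT-WD F2 and highest in KO-WD M1. The summed Paneth cell markers (3 of 3 measured) were higher in every KO-WD library (24070 to 34899) than in any WT-WD library (5187 to 16945), and ran from 8377 to 25786 in WT-ND and 23486 to 46189 in KO-ND. The part of cell mixture in the group differences of these genes was not tested.

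Over the 13 libraries, Srxn1 followed the enterocyte markers closely (log2 values, Pearson's r = 0.901, adjusted permutation p = 0.00056; Spearman's rho = 0.841, adjusted permutation p = 0.003). Gclm (r = 0.856, rho = 0.868) and Nfe2l2 (r = 0.821, rho = 0.857) did so too, with adjusted permutation p of 0.00056 and 0.00128 for r and 0.003 for each rho. An r at least as high was found for 0.84% of all genes tested in the case of Srxn1, 2.32% for Gclm and 3.91% for Nfe2l2. Without the pair of libraries farthest from the median of the markers, r was 0.723, 0.773 and 0.781. Within the diets, r was 0.825, 0.847 and 0.745 among the 6 ND libraries and 0.955, 0.873 and 0.875 among the 7 WD libraries. With the smooth muscle markers the same genes ran opposite, at r = -0.759 for Srxn1 (adjusted permutation p = 0.0062), -0.730 for Nfe2l2 (0.0184) and -0.628 for Gclm (0.0527). No correlation was computed with the summed goblet cell markers (4 of 4 measured). Their sum was highest in WT-WD F2, KO-WD F and WT-ND F2 (8997, 7249 and 6048), where Srxn1 was highest too (140, 110 and 125 scaled RPKM). In KO-WD M1, lowest for Srxn1 (25.6), it was 2830, near its lowest (2741 in WT-WD F1). The relation of Srxn1 is thus not shown to be particular to enterocytes.

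For the AHR-side genes and Nqo1 no relation passed the threshold. Against the enterocyte markers r was -0.369 for Ahr (rho = -0.187), -0.070 for Arnt (0.033), 0.337 for Tiparp (0.335) and 0.064 for Nqo1 (-0.011), with adjusted permutation p between 0.382 and 0.838 for r. Gclc lay between, at r = 0.487 with the enterocyte markers (adjusted permutation p = 0.182) and -0.647 with the smooth muscle markers (0.0467). In all, 16 relations were tested, 8 genes against both marker lists, and adjusted together. Both lists were taken from several after seeing the data, and the adjustment does not cover that choice. The shuffles ignored the groups, so differences between groups enter these p-values. KO-WD M1 and WT-WD F2 were opposite extremes of both sums, so the lists are not separate support. Of the 16, 6 had an adjusted p below 0.05 for r.

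**Figure D3:**
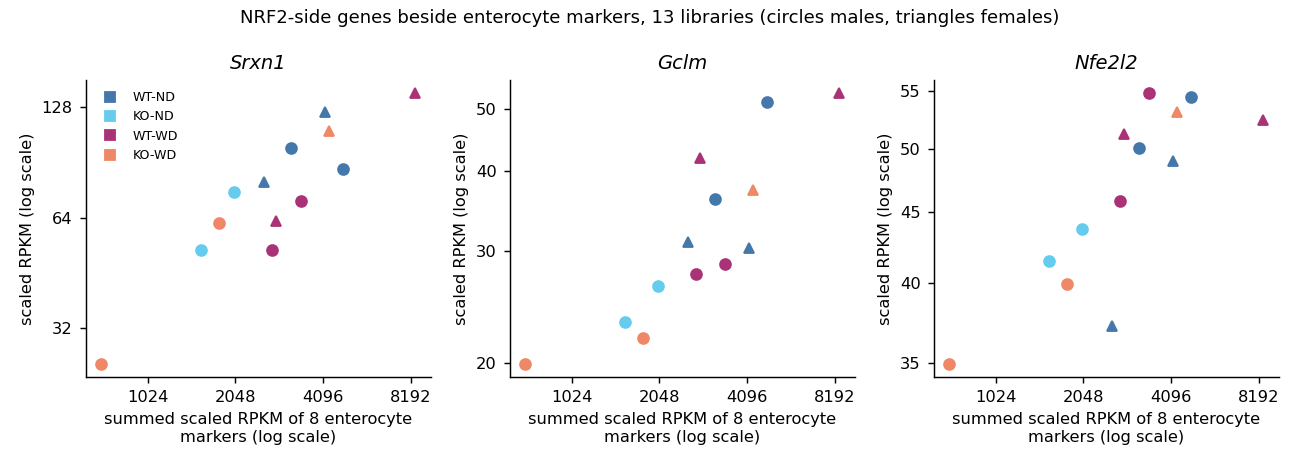
Scaled RPKM of Srxn1, Gclm and Nfe2l2 (vertical axes, log scale) against the summed scaled RPKM of 8 enterocyte markers (horizontal axes, log scale) in the 13 libraries, coloured by group, with circles for males and triangles for females. All 3 genes rise with the markers (r = 0.901, 0.856 and 0.821), and KO-WD M1 lies at the lower left of each panel.

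The genes whose profiles were most like each of these genes over the 13 libraries differed on the 2 sides. Among 10904 genes with a mean of at least 5 RPKM, those nearest to Srxn1 were Serpinb1a (r = 0.980), Krt20 (0.977), a keratin of mature gut epithelium, and Cdhr5 (0.976), a cadherin of the brush border. Nearest to Nfe2l2 were Akr1c14 (0.950) and the amino acid transporter Slc6a20a (0.928), and nearest to Gclm were Tmem37 (0.941) and Btg2 (0.940). Nearest to Ahr were the immunoglobulin heavy-chain segments Ighv1-71 (0.923) and Ighv1-62-2 (0.905), which are products of B and plasma cells. Nearest to Tiparp beside an unnamed gene model was Cyld (0.883), and nearest to Nqo1 was Fh1 (0.818), fumarase. These values are descriptions, since each is the highest of many and all points share the same libraries.

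Among themselves the 8 genes made 28 pairs, with a median r of 0.141 over the 13 libraries. Nfe2l2 and Gclm were the most alike (r = 0.754), then Gclm and Srxn1 (0.702) and Nfe2l2 and Srxn1 (0.667). Ahr and Arnt, which act as a pair, had r = 0.576. Ahr and Srxn1 were the most opposed (r = -0.575). Nqo1 had r between -0.162 (Gclm) and 0.201 (Nfe2l2) with the other NRF2-side genes. These are descriptions over libraries whose marker sums differed too.

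Sex was read within the groups as well. With sex in the model, Srxn1 was 0.63 (log2) higher in females (-0.04 to 1.31, limma adjusted p = 0.287) and Arnt 0.33 lower (interval of the difference -0.62 to -0.04, unadjusted p = 0.0289, adjusted p = 0.206). Of all genes 0.042% were called by sex and 19.3% had an unadjusted p below 0.05, while of the 8 genes 0 were called and 1, Arnt, had an unadjusted p below 0.05. Gclm showed no steady sex pattern, since both females were above both males in WT-WD and the female was above both males in KO-WD, while both females were below both males in WT-ND. With KO-ND holding no female, genotype and sex are partly tied together on the ND. With sex as a covariate, the ND genotype estimate was -0.39 for Gclm and -0.30 for Srxn1, against -0.55 and -0.62 without it.

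Most of these genes were read through a single transcript. Ahr, Ahrr, Nqo1, Gclc and Srxn1 had 1 transcript each in the table. Of the Nfe2l2 RPKM, 97.5% lay on Nfe2l2-201, which encodes the protein, and of the Tiparp RPKM 87.3% lay on Tiparp-201. The short, noncoding Tiparp-203 was listed at under 0.001 RPKM in both KO-ND libraries and at 0.146 to 1.12 RPKM in the other 11, which is a few reads. Arnt had 6 transcripts, of which the coding Arnt-202 took 57.8% and the retained intron Arnt-208 13.9%. Transcript shares are the estimates of the quantification, and short transcripts that overlap a longer one are the least certain.

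Gclm had 6 transcripts, with 71.2% of its RPKM on the coding Gclm-203. The noncoding Gclm-202 made up 12.2% of Gclm in WT-ND, 10.2% in KO-ND, 3.40% in WT-WD and 0.0672% in KO-WD. It was 9.14, 2.36, 6.87 and 3.73 RPKM as deposited in WT-ND (M1, M2, F1, F2) and 3.95 and 1.57 in KO-ND. On the WD it was under 0.001 in 4 of 7 libraries, 0.043 in KO-WD F, 1.02 in WT-WD F1 and 3.48 in WT-WD F2. The WD libraries were thus lower for the most part, with WT-WD F2 inside the ND range. No test was made on single transcripts. The coding Gclm-203 was 72.3% of Gclm in KO-ND and 68.7% in WT-ND, so that the lower Gclm of KO-ND was there in the coding transcript, at a mean of 19.6 against 31.2 RPKM.

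**Figure D4:**
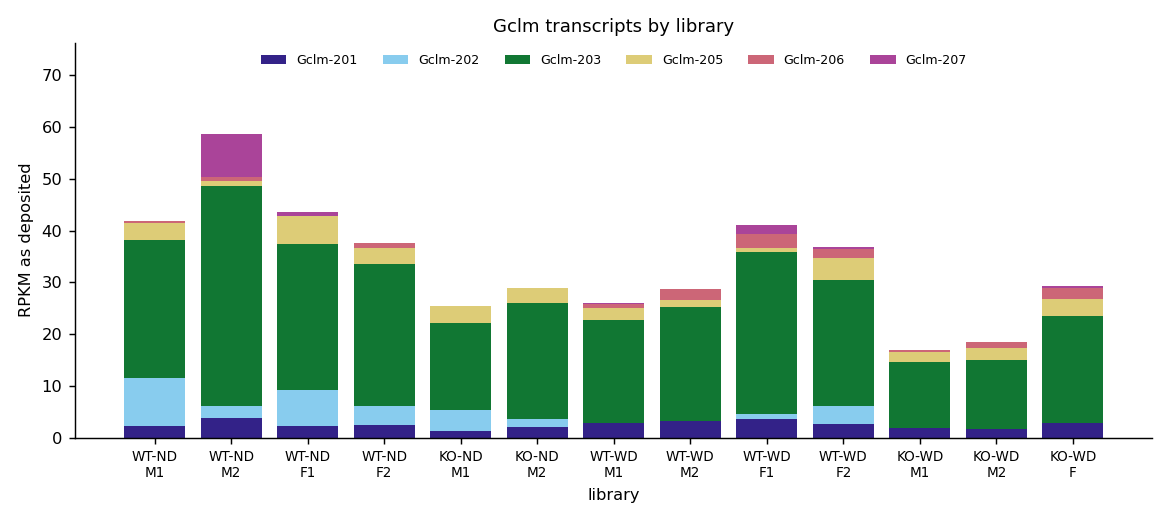
RPKM as deposited (vertical axis, from 0) of the 6 Gclm transcripts, stacked, in each of the 13 libraries. Gclm-203 makes up most of every bar, and Gclm-202 is seen in all ND libraries but in few WD libraries.

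The other genes of the pathways were read in the same comparisons. Of 12 other AHR genes (chaperones, partners and targets), 10 were in the table and 9 were tested. In any comparison 0 were called, as were at most 0.0105% of all genes. At an unadjusted p below 0.05 (limma), 2 were lower in KO mice on the ND (22.2% against 4.75% of all genes). On the WD 1 was (11.1% against 2.65%), and 0 passed in either diet comparison (15.6% and 5.49%). With diet 8 of 9 were lower in WT mice (48.4% of all genes) and 4 of 9 in KO mice (49.7%). Those medians were -0.20 and 0.16. The glucuronosyltransferase Ugt1a6a, a classic AHR target, was 8.69 scaled RPKM in WT-ND, 5.07 in KO-ND, 7.70 in WT-WD and 4.09 in KO-WD (group means). Its log2 fold change with genotype was -0.69 on the ND (limma unadjusted p = 0.037, adjusted p = 0.894) and -0.90 on the WD (limma unadjusted p = 0.00448, adjusted p = 1.00). The Ugt1a genes share their last exons, so reads may be split among them uncertainly. Ugt1a6b, at 1.09, 0.0909, 0.5001 and 0.274 in the same order, had -1.19 on the ND (limma unadjusted p = 0.046, adjusted p = 0.894). The AHR chaperone Ptges3 (p23) had 0.40 in WT mice and 0.54 in KO mice with diet (limma adjusted p = 0.361 and 0.90).

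All 40 other NRF2 genes were tested, and 0 were called in any comparison (at most 0.0105% of all genes were). In WT mice 1 had a higher and 6 a lower level on the WD at an unadjusted p below 0.05, which is 17.5% against 15.6% of all genes, and the median log2 fold change was -0.18 against 0.02. Those with the smallest p were not called. Pgd of the pentose phosphate pathway was 104 scaled RPKM on the ND and 60.99 on the WD (log2 fold change -0.80, limma adjusted p = 0.145), Me1 (malic enzyme) 9.55 and 3.13 (-1.30, limma adjusted p = 0.153) and Tkt (transketolase) 332 and 194 (-0.81, limma adjusted p = 0.175). G6pdx and Taldo1 of the same pathway had -0.28 and -0.20 (limma unadjusted p = 0.159 and 0.375). These and the ferritin light chain Ftl1 (-0.77, limma adjusted p = 0.233) did not pass the threshold. In KO mice Pgd had -0.67 (limma adjusted p = 0.90) and Gss, glutathione synthetase, -0.66 (limma adjusted p = 0.891), while Cul3 had 0.63 and Keap1 -0.32. Between genotypes on the WD, the glutathione peroxidase Gpx2 was 413 scaled RPKM in WT-WD and 939 in KO-WD (1.29, limma adjusted p = 1.00), Gsr, glutathione reductase, 23.5 and 39.9 (0.76, limma adjusted p = 1.00), and Me1 3.13 and 7.33 (1.14, limma adjusted p = 1.00). The 3 were the list's only members with an unadjusted p below 0.05 there, 7.5% of 40 against 2.65% of all genes. On the ND, Cul3, part of the ligase that marks NRF2 for destruction, was 20.4 in WT and 12.5 in KO mice (-0.68, limma adjusted p = 0.894) and Maff, a partner of NRF2, 8.51 and 4.26 (-0.93, limma adjusted p = 0.894).

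Immediate early genes, which answer to handling and dissection within minutes, were read as a sign of tissue handling. On the ND, 10 of 10 had a log2 fold change below 0 in KO against WT mice (48.7% of all genes did), with a median of -0.66 (0.01 over all genes). For diet in WT mice 8 of 10 were below 0 (48.4% of all genes), with a median of -0.57 (0.02 over all genes), and the lowest p-values were those of Ier2 (-0.71, limma adjusted p = 0.125) and Fosb (0.72, limma adjusted p = 0.203). The medians were 0.14 for diet in KO mice and -0.16 for genotype on the WD. Jun was 44.6 scaled RPKM in WT-ND and 21.6 in KO-ND (-1.04, limma adjusted p = 0.894), and Fos 74.5 and 27.9 (-1.37, limma adjusted p = 0.894). None of the 10 was called in any comparison (at most 0.0105% of all genes were). Gclm and Srxn1 were lower in the same KO-ND libraries, and the part of handling in this or in the diet estimates of WT mice was not tested.

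**Figure D5:**
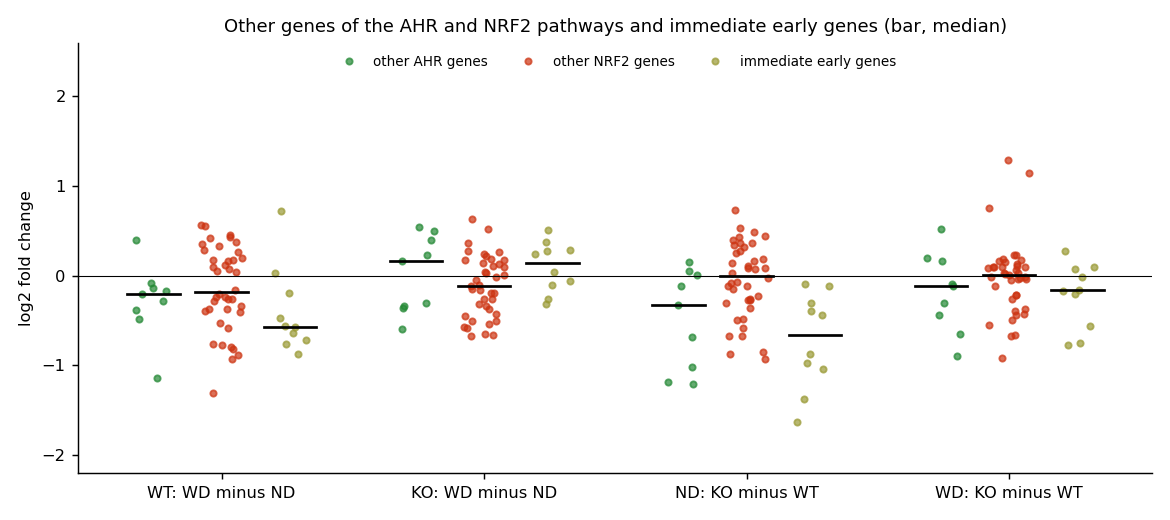
Log2 fold changes (vertical axis, limma) of 9 other AHR genes, 40 other NRF2 genes and 10 immediate early genes in the 4 comparisons, each point a gene and each bar a median. The NRF2 medians lie between -0.18 and 0.01, and the lowest median is that of the immediate early genes on the ND (-0.66).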

How the data were processed

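For each library the authors ran an Ion Proton sequencer, aligned reads to GRCm38 (mm10) with STAR 2.5.3a inside Partek Flow, and used the annotation of Ensembl release 91. RPKM per transcript is what was deposited, although the series table is named as raw counts: they are not whole, and single reads are visible as steps (about 87% of low values came out within 0.02 of a whole read). Count models were therefore not used. The authors themselves name DESeq2. Samples were grouped by their labels.

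RPKM of the transcripts was summed per gene. To scale the libraries, a TMM-type factor was computed (30% of ratios and 5% of levels trimmed at each end), genes with at least 1 RPKM in at least 2 of the 13 libraries were kept, and log2(scaled RPKM + 0.5) was fitted in limma 3.58.1 (R 4.3.3) with a trend, all 4 groups in one model, and Benjamini-Hochberg adjustment over 19042 genes. Fold changes are on that scale, which understates those of low genes such as Ahr. Genes were called at an adjusted p below 0.01 and a fold change of at least 2. Exact permutation tests were two-sided. Permutation p-values of correlations used 100000 shuffles (two-sided) and were adjusted over 16 relations. Scripts were tested on simulated data, in which 200 genes were changed between WT-WD and WT-ND by a known amount. The group means were removed first and the remaining spread was widened, so every other gene had a difference of 0. The counts thus say nothing on false calls and are only a rough guide to the real comparison. Of the 200, 0 were called at a log2 change of 1, 52 at 1.5 and 170 at 3. At an adjusted p below 0.05 (limma) 0, 79 and 187 passed.

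Both KO-ND female columns equalled fixed weighted means of the KO-ND male columns (0.75 and 0.25, 0.625 and 0.375) in all but 17 and 18 of 59258 transcripts. The second KO-WD female column had the digits of a mean of the first and another library (2 times it minus the first had at most 6 digits in 98.7% of transcripts, against 76.6% for WT-WD), so both were averaged and n = 3 there. Nothing in the labels says whether each library is a separate mouse beyond its number. The genes and the lists were chosen with earlier results of these data known. Genes to be named were the 10 genes themselves and, in each pathway list, those called or otherwise the 4 of smallest p in the diet and genotype comparisons (1 such gene is not reported here); other likenesses and promoters followed the order of r or p. The relation to marker sums and the sex estimates were added after seeing the data. Alternatives covered scaling, filters, pseudocounts, covariates, samples, thresholds and the columns used.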

Additional observations from a re-analysis of the deposited data

Results flagged for a closer look

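Tiparp in WT-WD had 1 library far from the others: WT-WD M2 stood at 5.60 RPKM as deposited, against 3.61, 3.78 and 3.83 in the other 3, a gap of 0.892 of the range (Dixon's limit for 4 samples is 0.829). It was 1 of 18 groups of 4 looked at, and chance flags about 1 in 20. On the scaled values Tiparp in WT-WD M2 (5.57) had a neighbour in WT-WD F2 (5.50).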

How the results depend on the processing

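The number of the 8 genes called was 0 in all 5 comparisons under every alternative run, including the added one without the 2 libraries of lowest median (WT-WD F2 and KO-WD F); Ahr and Tiparp were not tested under the filter of a mean of at least 5 RPKM. With RPKM as deposited, 1 of the 40 other NRF2 genes was called for diet in WT mice, against 0. Of 942 values under alternatives 59 changed sign, all of them of log2 fold changes that were not called. With RPKM as deposited these were, for diet in WT mice, Ahr -0.16, Arnt -0.42, Nfe2l2 -0.35, Nqo1 -0.41 and Gclm -0.45; for diet in KO mice Ahr -0.0596, Arnt -0.0757 and Gclm -0.36; and for genotype on the WD Arnt -0.0409 and Gclc -0.0881. With males only they were Arnt -0.0875, Nfe2l2 -0.0524 and Gclm -0.60 for diet in WT mice, Gclm -0.24 for diet in KO mice and Gclc -0.26 for genotype on the WD. With all 16 columns as labelled they were Gclm -0.0046 for diet in WT mice and Nfe2l2 0.0739, Gclc 0.16 and Srxn1 0.0513 for diet in KO mice. For diet in KO mice, upper quartile scaling gave Gclc 0.0017, KO-WD female 1 alone gave Gclc 0.0325 and Gclm -0.0109, and sex as a covariate gave Gclm -0.0654. In the fit of 2 groups alone Gclc had -0.0026 for genotype on the WD. The causes were not tested.

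Leaving out each library in turn turned the sign of these values, given as their lowest and highest. For diet in WT mice they were Arnt -0.10 to 0.11, Nfe2l2 -0.0034 to 0.17, Nqo1 -0.0869 to 0.10 and Gclm -0.18 to 0.16. For diet in KO mice they were Ahr -0.10 to 0.65, Nfe2l2 -0.19 to 0.12, Gclc -0.27 to 0.28, Gclm -0.24 to 0.21 and Srxn1 -0.65 to 0.40. For genotype on the ND they were Ahr -0.51 to 0.23 and Gclc -0.43 to 0.084. For genotype on the WD they were Ahr -0.27 to 0.0763, Arnt -0.0362 to 0.18, Tiparp -0.25 to 0.0408, Gclc -0.24 to 0.33 and Srxn1 -0.92 to 0.15. With 1 KO-ND library left, it is assumed to vary like the other groups.

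Same-numbered libraries of the same sex deviated from their group means with correlations from -0.20 to 0.57, which does not settle whether the numbers pair the samples. The correlation was 0.57 for M1 of WT-WD and KO-WD and 0.47 for F1 of WT-ND and WT-WD. It was -0.20 for WT-ND F1 and KO-WD F, which was counted as F1 though it is an average. Other pairs reached as high: WT-WD F2 and KO-WD F had 0.63, and WT-WD F1 and KO-WD M1, of opposite sex, had 0.38. With a replicate block, the calls stayed at 0 and Gclm had -0.068 for diet in KO mice. The intervals limit what can be said: 2 KO-ND libraries leave an interval of 0.311 to 1.37 in fold for Srxn1 on the ND, and Ahrr rests on few reads.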
